A study of Caenorhabditis elegans with 6 samples.

Results

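The gene-rich centres of chromosomes II, III, IV and V of the nematode Caenorhabditis elegans were followed in DamID profiles of whole larvae. Bins of 100 kb were numbered along each chromosome, each chromosome was divided into 3 equal parts, and the bins of the central part were kept. This gave 225 of 1005 nuclear bins, namely 51 on II (5100001 to 10200000), 46 on III (4600001 to 9200000), 58 on IV (5800001 to 11600000) and 70 on V (7000001 to 14000000). The rule uses chromosome and bin number and no measured value. The deposited table numbers its bins without coordinates, so the positions assume consecutive steps of 100 kb from the start of each chromosome in the build ce10, counted from 1.

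The labels describe 6 samples of animals at the L4 stage, the last larval stage, with 1 sample per construct and sex. The bacterial methyltransferase Dam was used in 3 fusions, with lmn-1, mel-28 or gfp, each in hermaphrodites and in males and each driven by the uninduced heat-shock promoter hsp-16.41. A sample stands for 20 whole animals, lysed 10 to a tube after growth at 25 °C on E. coli. Tissues were not separated, and how much each tissue adds to a value was not measured. The data are ratios for the strains coded PMW123 and PMW179, each relative to the strain coded PMW124 of the same sex. No label ties a strain code to a construct, and the strains are therefore called by their codes.

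Dam methylates the adenine of GATC. When it is fused to a protein, the sites near that protein's places on chromatin are methylated more often, and the methylated sites can be cut with DpnI, amplified and sequenced. A fusion with GFP, which has no chromatin target of its own, is commonly used to measure how accessible each site is. lmn-1 encodes the single lamin of C. elegans, which lines the inside of the nuclear envelope, and MEL-28 is a protein of nuclear pores and of chromatin. The centres of worm autosomes carry many of the broadly expressed genes and recombine rarely in meiosis. Their distal arms hold more repeats and silent chromatin and are known to lie at the nuclear periphery.

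All levels below start from the authors' deposited table, which has 1 ratio per bin, strain and sex. No label ties the ratio columns to a labelled sample, and they were taken only as the authors' comparisons by strain code and sex. A deposited table of whole numbers has 2 columns per strain code and sex, likewise tied to no labelled sample. It was not used here. The values below therefore carry no replicate error, read depth or test, and neighbouring bins are not replicates of a condition. Of the 225 bins, 224 had a finite ratio above 0 in hermaphrodites and 225 in males. The exception was V 8800001 to 8900000, which the authors' deposited table lists as NA for PMW123 and Inf for PMW179 in hermaphrodites. Its ratios in males were 0.267 and 1.05 in that table.

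PMW123 was low on the centres in both sexes. Its median ratio there was 0.695 in hermaphrodites, with quartiles of 0.480 and 0.968, and 0.576 in males, with quartiles of 0.362 and 0.850. On the outer parts of the same chromosomes, called arms here, the median ratio was 1.36 in hermaphrodites and 1.41 in males. The interquartile ranges of centres and arms overlapped slightly in hermaphrodites, where the lower quartile of the arms was 0.907, and did not overlap in males, where it was 0.971. A ratio under 1 was found in 171 of 224 centre bins in hermaphrodites and in 186 of 225 in males. Of all nuclear bins, 508 of 992 in hermaphrodites and 500 of 996 in males had a ratio under 1.

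To put the sexes on 1 scale, each log2 ratio was also expressed relative to the median of all autosomal bins of that strain and sex. On this scale the PMW123 level of the centres was -0.59 in hermaphrodites (0.663-fold) and -0.93 in males (0.527-fold). At least 1.5-fold below the autosomal median were 114 of 224 centre bins in hermaphrodites, or 50.9%, against 29.0% of all nuclear bins. In males the count was 143 of 225, or 63.6%, against 34.6% of all nuclear bins. At least 1.5-fold above it were 21 and 16 centre bins, or 9.38% and 7.11%, against 25.7% and 24.9% of all nuclear bins. The share of low bins was thus above the background in both sexes, and the share of high bins below it. On the arms 54 of 441 bins in hermaphrodites and 63 of 449 in males were low by the same measure.

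The low bins of the sexes were largely shared. Of 224 bins with values in both sexes, 96 were at least 1.5-fold below the autosomal median in both, which is 42.9% of the bins against 20.9% of all nuclear bins. These 96 bins were 84.2% of the hermaphrodite list and 67.6% of the 142 bins on the male list that had both values. On the arms 32 of 441 bins were low in both sexes. Hermaphrodites and males have separate PMW124 denominators, so the overlapping lists share no sample.

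**Figure D1:**
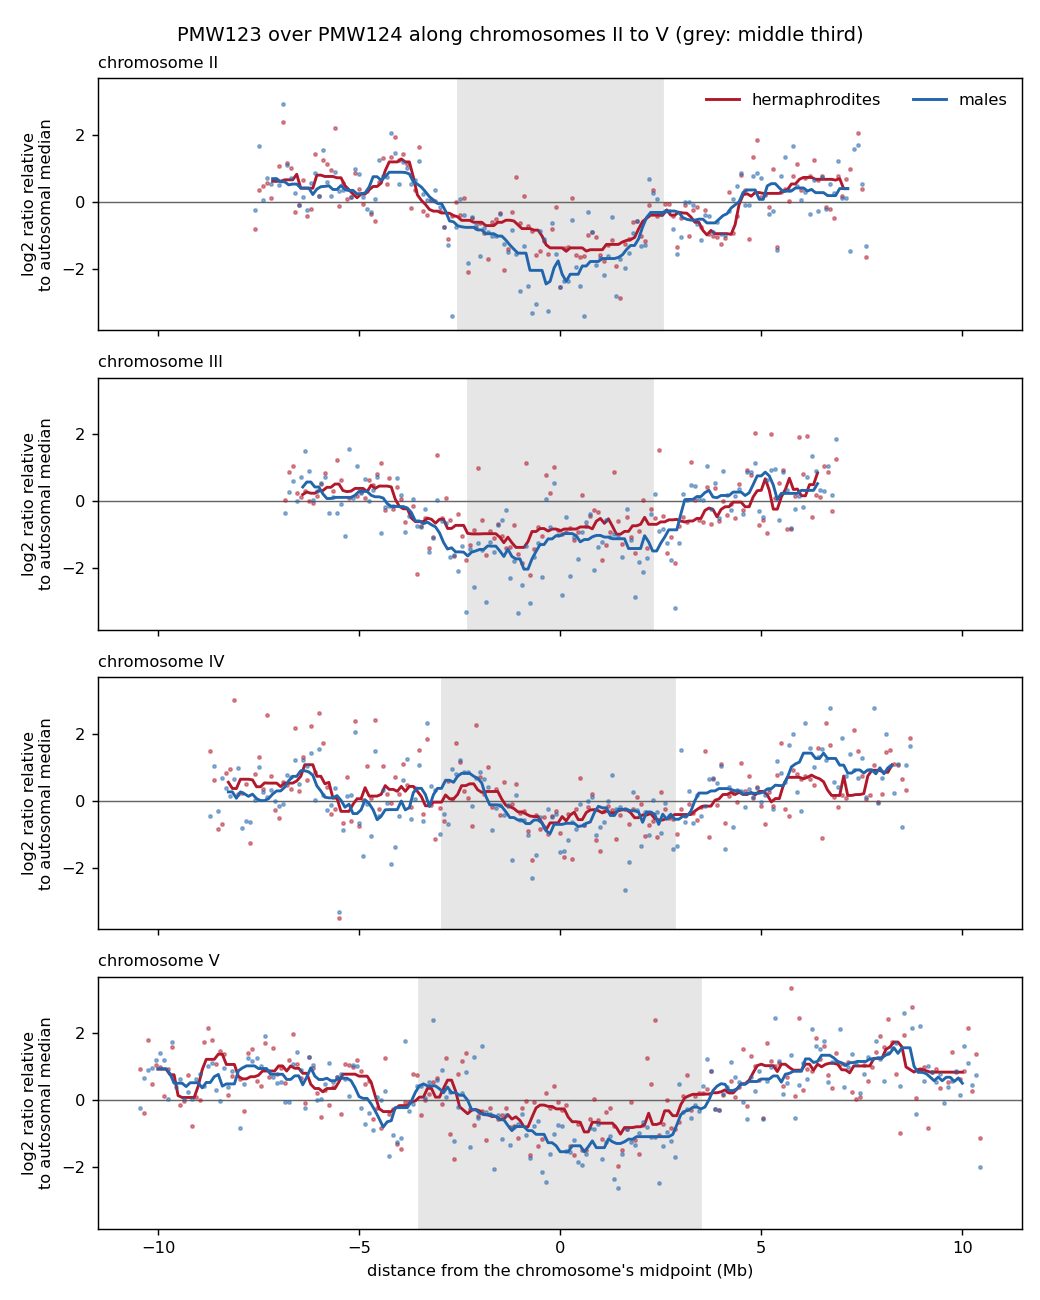
Points are single bins of 100 kb and lines are medians of 10 neighbouring bins; the horizontal axis is the distance from the chromosome's midpoint in Mb and the vertical axis the log2 ratio of PMW123 over PMW124 relative to the autosomal median. The centre is grey. Both sexes dip in the centre of II, III, IV and V, to -2.45 for the lowest window on II in males, while the left side of the centre of IV lies above 0.

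The 4 centres were low to different degrees, with II and III below IV and V in both sexes. The PMW123 level there was -0.999 on II, -0.89 on III, -0.35 on V and -0.30 on IV, relative to the autosomal median. In males it was -1.32 on II, -1.29 on III, -0.85 on V and -0.40 on IV. Within a centre the bins scattered with an SD of 0.73 to 0.84 (log2) in hermaphrodites and 0.82 to 0.97 in males. In males V stood between the pair II and III and chromosome IV. The order inside a pair depended on how the centre was cut: over the middle 50% of each chromosome III was below II, at -0.79 against -0.69 in hermaphrodites and -1.23 against -0.90 in males, and in hermaphrodites IV and V were level, at -0.23 on both. With means in place of medians III was also the lower of that pair in males, at -1.29 against -1.26.

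Set against the arms of its own chromosome, each centre was lower, which takes out the level of the whole chromosome. Centre minus arms was -1.17 on II, -0.97 on III, -0.67 on IV and -1.11 on V in hermaphrodites (log2). Males had -1.56, -1.35, -0.74 and -1.50. The mean of the 4 chromosomes was -0.98 ± 0.23 in hermaphrodites and -1.29 ± 0.37 in males (SD over 4 chromosomes, which are not replicates). Chromosome V, whose arms had the highest PMW123 level of the 4, 0.77 in hermaphrodites and 0.65 in males, thus had a contrast close to that of II even though its centre was much less low.

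The centre of chromosome I, which is not among these bins, had levels of -0.67 in hermaphrodites and -1.04 in males and lay within the range of the other autosomal centres. The middle of X had -0.52 and -1.12, but its contrast to the arms of X was only -0.15 and -0.70. Whether X and the autosomes differ in this contrast was not tested.

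Not every centre was low throughout. When each was cut into a left, a middle and a right section of 15 to 24 bins, 11 of 12 sections were below the autosomal median for PMW123 in either sex. The deepest section was the middle one of II, at -1.36 in hermaphrodites and -2.37 in males (0.389-fold and 0.194-fold), with 16 and 17 of its 17 bins below the autosomal median. The exception was the left section of IV (5800001 to 7800000), at 0.25 in hermaphrodites and 0.02 in males. There 7 and 10 of 20 bins were below the autosomal median. The left section of V (7000001 to 9400000) was likewise nearer to the autosomal level than the rest of its centre, at -0.27 and -0.07, against -0.56 and -1.19 in the middle section and -0.64 and -1.07 in the right one. On III the left section was the lowest in both sexes, at -1.07 and -1.48.

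**Figure D2:**
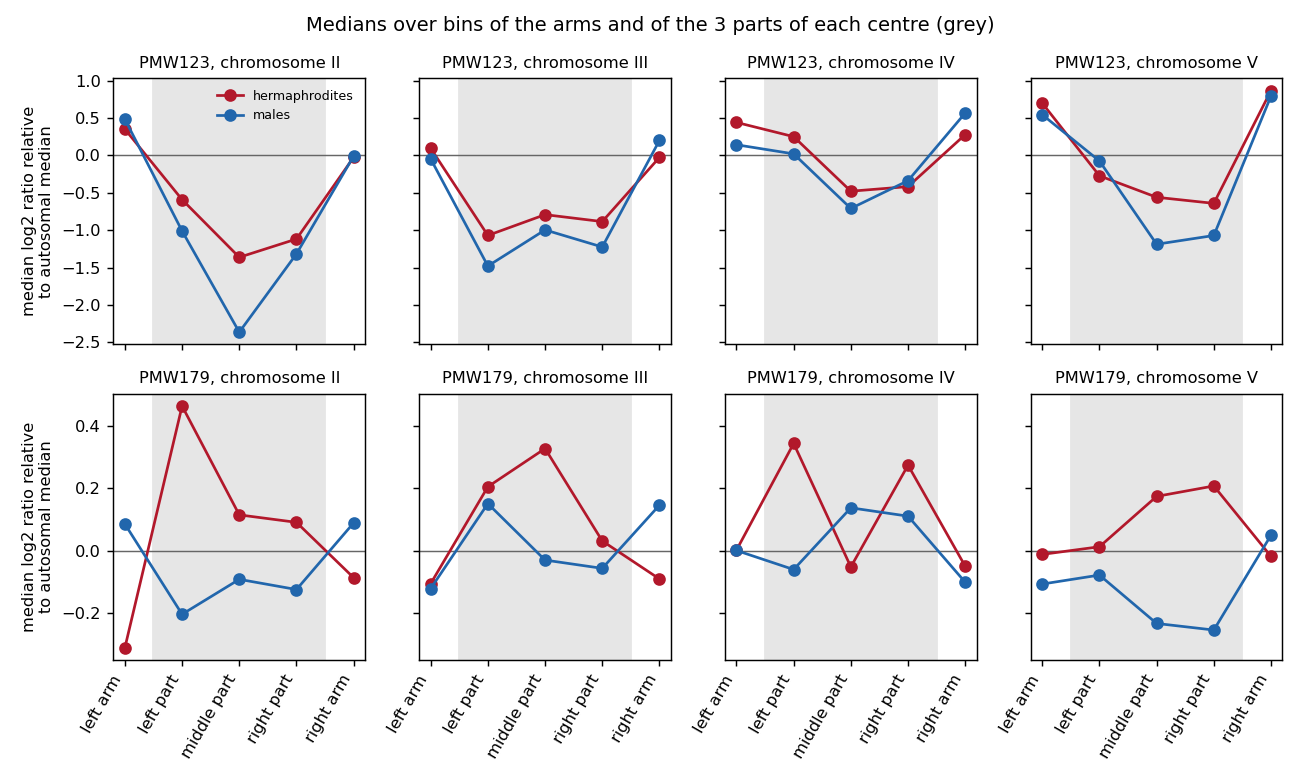
Each point is the median log2 ratio relative to the autosomal median over the bins of an arm or of 1 of 3 sections of the centre (grey); the upper row is PMW123 and the lower row PMW179, each row with its own vertical scale. PMW123 dips to -2.37 in the middle of II in males and stays near 0 in the left section of IV. PMW179 keeps within -0.31 and 0.46, with hermaphrodites above males in 11 of 12 sections of the centres.

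Medians of 10 neighbouring bins showed where the minimum lay. The lowest such window of the whole chromosome fell inside the centre in 8 of 8 PMW123 profiles, that is on 4 chromosomes in both sexes. On II it spanned 7300001 to 8300000 in hermaphrodites, with -1.48, and 6800001 to 7800000 in males, with -2.45. On III it spanned 5300001 to 6300000, with -1.37, and 5500001 to 6500000, with -2.02. Chromosomes II and III thus had their minima within 0.5 and 0.2 Mb of each other in the sexes.

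On IV the lowest windows of the sexes began 0.1 Mb apart, at 7900001 in hermaphrodites with -0.87 and at 8000001 in males with -0.98. On V they were 1.5 Mb apart, at 11500001 to 12500000 in hermaphrodites with -1.01 and at 10000001 to 11000000 in males with -1.53. The male window of V had -0.26 in hermaphrodites, whereas the hermaphrodite window had -1.29 in males. The minimum of V was therefore less well placed than the others, and with windows of 5 bins the places on II, IV and V also moved by over 1 Mb in 1 or both sexes.

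On II and III the low zone reached beyond the central part. The stretch of such windows below the autosomal median around the minimum ran from 3800001 to 12600000 on II in hermaphrodites and from 4100001 to 12500000 in males. On III it ran from 2400001 to 12100000 and from 2100001 to 10400000. Both zones, of 8.3 to 9.7 Mb, reached well into the arms as defined here. On IV and V the zones were 6.0 to 6.8 Mb long and began inside the centre, at 6900001 and 6500001 on IV and at 7500001 and 7800001 on V in hermaphrodites and males. They ended at 13000000 and 12500000 on IV and at 14000000, the end of the centre, and 14600000 on V.

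There was no sharp step at the edges of the centres. In the authors' deposited table the 8 bins just inside had PMW123 ratios from 0.425 to 1.23 in hermaphrodites, with a median of 0.779, and the 8 bins just outside had 0.311 to 1.76, with a median of 0.944. In males the same table gave 0.406 to 1.48 just inside, with a median of 0.846, and 0.110 to 1.48 just outside, with a median of 0.775. For PMW179 the medians in the authors' deposited table were 1.14 inside and 1.30 outside in hermaphrodites, and 1.01 and 0.854 in males.

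Runs of neighbouring low bins in the centres were long for PMW123, and runs elsewhere were not searched. Long low runs and short high runs partly follow from the level. For PMW123, 78.1% of centre bins in hermaphrodites and 84.9% in males were below the autosomal median. The longest low run in males took 48 bins of V in a row (8600001 to 13400000), with a median of -1.11 relative to the autosomal median, and 40 of these bins were also below it in hermaphrodites. The longest in hermaphrodites took 19 bins of II (8000001 to 9900000), with a median of -1.17, of which 18 were below it in males. Runs of high bins were shorter, 6 bins on IV (5900001 to 6500000) in hermaphrodites and 8 on V (7000001 to 7800000) in males. These lay at the left edges of the 2 centres whose left sections were near the autosomal level. For PMW179 the longest low run had 4 bins in hermaphrodites and 6 in males, and the longest high run had 12 bins on II (5900001 to 7100000) in hermaphrodites and 4 in males. Of those 12 bins, 7 were below the autosomal median in males.

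Bins at the ends of the ranking carried the same geography for PMW123. Of the lowest 23 centre bins of each sex (1 in 10), 9 were shared by the sexes, with 5 on II, 3 on III and 1 on V. Unrelated lists of this size would share about 1 in 10 of their bins. In the authors' deposited table II 7600001 to 7700000 had 0.182 in hermaphrodites and 0.188 in males. III 6100001 to 6200000 had 0.228 and 0.135, and II 9000001 to 9100000 had 0.280 and 0.155, in the authors' deposited table. The single one on V, at 11900001 to 12000000, had 0.269 and 0.179 in that deposited table. None of the 9 lay on IV.

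The highest 23 bins of each sex likewise had 9 in common, with 5 on IV, 3 on V and 1 on III. The 5 on IV all lay between 6100001 and 7000000, inside the left section. Among them, in the authors' deposited table, IV 6600001 to 6700000 had 5.03 in hermaphrodites and 1.74 in males, and IV 6200001 to 6300000 had 2.31 and 2.54. PMW179, over the same denominators, had 3.77 and 1.76 in the first and 1.29 and 1.28 in the second, in that deposited table. The shared high PMW123 bins on V were at 7300001 to 7400000, 7400001 to 7500000 and 8100001 to 8200000. The last had 2.79 and 1.94 in the authors' deposited table. The highest 10-bin windows of hermaphrodites lay in the same places, at IV 6000001 to 7000000 with 0.50 in hermaphrodites and 0.82 in males, and at V 7200001 to 8200000 with 0.60 and 0.39 relative to the autosomal median.

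Some of the very highest and lowest single bins, picked by the ranking of 1 sex, had unlike ratios in the other. V 12800001 to 12900000, the top PMW123 bin of hermaphrodites with 5.49, had 0.515 in males in the authors' deposited table. II 9100001 to 9200000, their bottom bin with 0.143, had 0.337 in males in that deposited table. The bottom 3 bins of males were II 8200001 to 8300000 with 0.102, III 5800001 to 5900000 with 0.108 and II 6900001 to 7000000 with 0.110, against 0.338, 0.356 and 0.574 in hermaphrodites in the authors' deposited table. Their top 3 bins all lay in the left section of V. V 7300001 to 7400000 had 5.73 in males and 1.52 in hermaphrodites, V 8500001 to 8600000 had 3.32 and 0.841, and V 8300001 to 8400000 had 2.65 and 0.632, by the authors' deposited table. Of the bins named here, II 8200001 to 8300000 and V 7300001 to 7400000 were among the extreme 23 of both sexes. So were the next lowest hermaphrodite bins, II 7600001 to 7700000 and III 6100001 to 6200000. The next highest, IV 6600001 to 6700000 and IV 6100001 to 6200000, were as well.

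Across the centre bins the PMW123 ratios of the sexes had a Pearson r of 0.56 and a Spearman rho of 0.56 over 224 bins, as a description of bins that neighbour one another. The differences between chromosomes carried only part of it, since r was 0.54 on II, 0.51 on III, 0.55 on IV and 0.43 on V. On the arms r was 0.62 over 441 bins. Over 21 windows of 10 bins that do not overlap, the likeness of the sexes was 0.88. Neighbouring centre bins differed by a median of 0.61 (log2) in hermaphrodites and 0.65 in males.

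**Figure D3:**
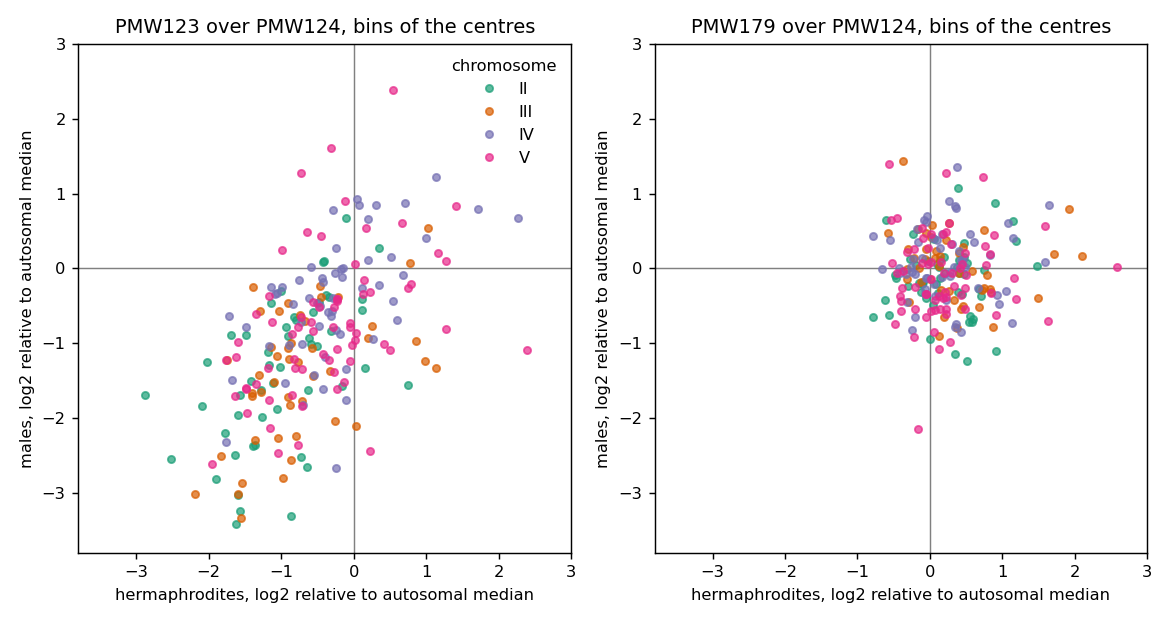
Each point is 1 centre bin, placed by its log2 ratio relative to the autosomal median in hermaphrodites (horizontal) and males (vertical), with PMW123 on the left and PMW179 on the right. PMW123 bins spread along the diagonal, with r = 0.56, and lie mostly below 0 in both sexes; PMW179 bins form a round cloud, with r = 0.02, shifted to the right of 0.

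PMW179 differed less than PMW123 between centres and arms. Its median ratio on the centres was 1.35 in hermaphrodites, with quartiles of 1.12 and 1.66, and 0.943 in males, with quartiles of 0.759 and 1.18. On the arms it was 1.15 and 0.977. Relative to the autosomal median the centres were at 0.16 in hermaphrodites (1.12-fold) and at -0.06 in males (0.962-fold). The interquartile ranges of centres and arms overlapped widely in both sexes.

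In hermaphrodites the 4 centres were at similar PMW179 levels, 0.20 on II, 0.21 on III, 0.16 on IV and 0.14 on V, and each was above the arms of its own chromosome. Centre minus arms was 0.35, 0.30, 0.19 and 0.15 in that order, with a mean of 0.25 ± 0.09 (SD over 4 chromosomes). The centre of I, at -0.05, and the middle of X, at -0.03, were lower than these 4. Single sections ran from -0.05 in the middle of IV to 0.46 in the left section of II, and 1 of 12 was below the autosomal median. In males the centres were at -0.12 on II, 0.0030 on III, 0.02 on IV and -0.11 on V. Centre minus arms had no common sign there, with -0.21, 0.04, 0.05 and -0.09, and 9 of 12 sections were below the autosomal median.

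The counts of PMW179 bins past 1.5-fold differed between the sexes in the same way. In hermaphrodites 5 of 224 centre bins, or 2.23%, were at least 1.5-fold below the autosomal median, against 12.3% of all nuclear bins. Above it were 44, or 19.6%, against 14.2%. In males 30 of 225, or 13.3%, were low, against 12.1%, and 22, or 9.78%, were high, against 22.0%. That last background holds the bins of the male X, whose middle had a level of 0.78. On the arms of II to V, 69 of 447 bins in males were high by this measure. Only 1 centre bin was low in both sexes, 0.446% against 1.42% of all nuclear bins. High in both were 6 of 224 centre bins, or 2.68%, against 16 of 440, or 3.64%, on the arms of II to V. The share of all nuclear bins high in both was not counted.

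Ratios of PMW179 in the 2 sexes showed no likeness bin by bin, with r = 0.02 and rho = -0.02 over 224 centre bins, and between -0.14 on III and 0.07 on II within a chromosome. Over 21 windows of 10 bins the likeness was -0.20. Neighbouring bins hardly resembled each other either, with a correlation of 0.06 in hermaphrodites and -0.01 in males after the chromosome's median was taken out, against 0.24 and 0.37 for PMW123. The SD over centre bins was 0.54 and 0.51 (log2) for PMW179 and 0.83 and 1.00 for PMW123. The 10-bin window that was lowest on its chromosome lay in the centre in 1 of 8 PMW179 profiles.

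**Figure D4:**
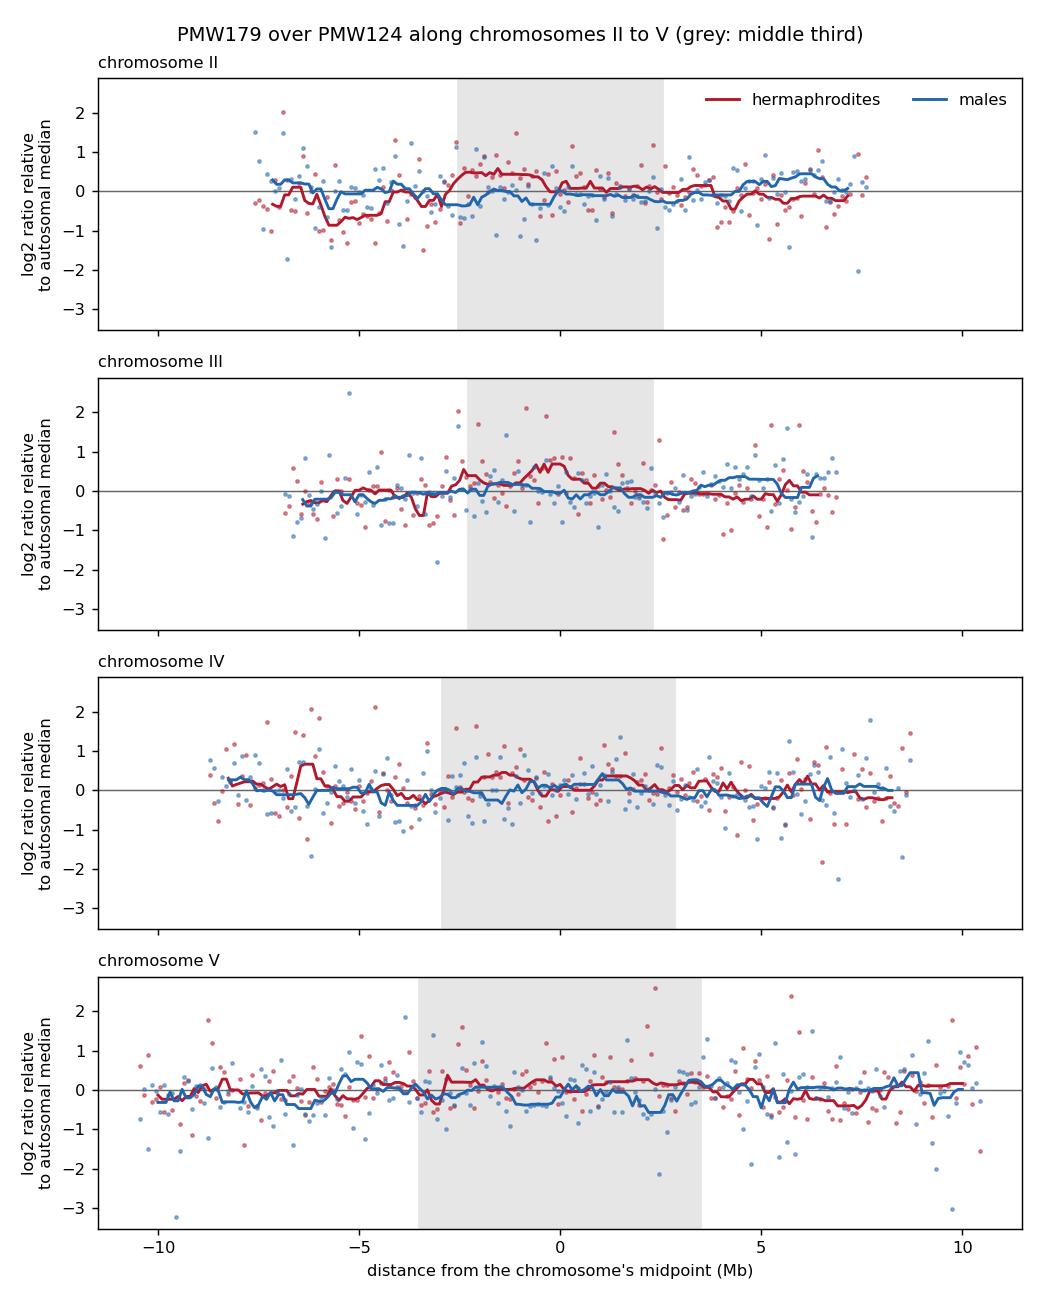
Points are single bins and lines medians of 10 neighbouring bins of the log2 ratio of PMW179 over PMW124 relative to the autosomal median, against the distance from the chromosome's midpoint in Mb; the centre is grey. The lines move to both sides of 0 in centres and arms alike, with hermaphrodites from -0.86 on the left arm of II to 0.68 in the centre of III; the medians of the 4 centres are 0.14 to 0.21 in hermaphrodites and -0.12 to 0.02 in males.

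For PMW179 the sexes shared 1 of their lowest 23 centre bins and 5 of their highest 23. Unrelated lists of this size would share about 1 in 10 of their bins. The top 3 of hermaphrodites were V 12800001 to 12900000 with 7.21, III 6000001 to 6100000 with 5.16 and III 6500001 to 6600000 with 4.55, against 0.990, 1.10 and 1.70 in males, by the authors' deposited table. The first of these bins was also the highest for PMW123 in hermaphrodites, and both strains have the same hermaphrodite denominator. Their bottom 3 were II 5100001 to 5200000 with 0.695, IV 8400001 to 8500000 with 0.697 and IV 8600001 to 8700000 with 0.763, against 0.627, 1.32 and 0.980 in males, by the authors' deposited table. The top 3 of males, by the authors' deposited table, were III 5500001 to 5600000 with 2.65, V 7300001 to 7400000 with 2.57 and IV 10200001 to 10300000 with 2.51. The bin on V also had the highest male PMW123 ratio, over the same male denominator. The bottom 3 of males were V 12900001 to 13000000 with 0.222, II 7000001 to 7100000 with 0.416 and II 6600001 to 6700000 with 0.444, and hermaphrodites had 1.08, 1.72 and 1.53 there, by the authors' deposited table.

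For each bin the log2 ratio of hermaphrodites was then subtracted from that of males, and the result is given relative to the median difference over the autosomal bins. Both strains were lower on the centres in males. PMW123 had a median difference of -0.22 (0.858-fold), with quartiles of -0.85 and 0.21, and 140 of 224 bins were lower in males. PMW179 had -0.28 (0.824-fold), with quartiles of -0.76 and 0.24, and 146 of 224 bins lower. These counts were 62.5% and 65.2% of the centre bins, against 51.3% and 43.4% of all nuclear bins, X included. Over the autosomal bins the shares were 50% and 49.9%, as the scale is set on their median. The arms had median differences of 0.06 and 0.14.

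By chromosome the PMW123 difference was -0.22 on II, -0.49 on III, 0.04 on IV and -0.37 on V. That of PMW179 was -0.30, -0.19, -0.16 and -0.37. At least 1.5-fold lower in males were 77 PMW123 bins, or 34.4%, against 26.9% of all nuclear bins, and 71 PMW179 bins, or 31.7%, against 21.7%. At least 1.5-fold higher in males were 36 and 21 bins, or 16.1% and 9.38%, against 21.8% and 29.1%. The PMW179 background includes the bins of X, and over the autosomal bins alone it was 21.1%. IV was the only one of the 4 centres without a lower PMW123 median difference in males.

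Single bins with a large sex difference for 1 strain could have a large one for the other. V 12800001 to 12900000 had the lowest for both, with PMW123 going from 5.49 in hermaphrodites to 0.515 in males and PMW179 going from 7.21 to 0.990 in the authors' deposited table. V 7300001 to 7400000 had the highest for PMW179, from 0.814 to 2.57 in the authors' deposited table, and the third highest for PMW123, from 1.52 to 5.73. For PMW123 the highest was V 8300001 to 8400000, from 0.632 to 2.65 in that deposited table. Within each sex the strains share the PMW124 denominator, so a low or high PMW124 value in a bin enters both.

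Dividing the PMW123 ratio by the PMW179 ratio of the same bin removes that denominator as far as both ratios hold the same one. On this measure the centres were at -0.76 relative to the autosomal median in hermaphrodites (0.591-fold), with 201 of 224 bins below it, and at -0.93 in males (0.526-fold), with 184 of 225 below it. These were 89.7% and 81.8% of the bins, against 52.8% and 56.9% of all nuclear bins. The arms were at 0.50 and 0.40. By chromosome the centres had -1.07 on II, -0.98 on III, -0.51 on IV and -0.56 on V in hermaphrodites, and -1.25, -1.35, -0.38 and -0.63 in males. PMW123 was thus lower than PMW179 on each of the 4 centres in both sexes, and IV and V were again less low than II and III.

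The sex difference of this direct measure on the centres was 0.03, taken bin by bin and relative to the autosomes, with 108 of 224 bins lower in males. These were 48.2% of the bins, against 56.3% of all nuclear bins, X included, and 49.9% of the autosomal bins. By chromosome the difference was -0.02 on II, -0.18 on III, 0.03 on IV and 0.12 on V. The separate strains, at -0.22 and -0.28, were each lower in males on the centres, whereas the ratio of the strains was close to the autosomal value. The part of the PMW124 denominators in them was not tested.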

How the data were processed

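DamID was read from whole animals, and the tools named, per the submitters' processing notes, are Bowtie, SAMtools and cutadapt, on ce10, with no versions or settings. The values in the table that the authors deposited are a linear ratio per 100 kb bin, strain code and sex, relative to PMW124, whose own ratio is 1 in 992 bins of hermaphrodites and 998 of males and NA elsewhere. No source says how libraries were combined. A second table has 12 columns of whole numbers, named by strain code, sex and a number. As with the ratio columns, no label ties them to a labelled sample. The whole numbers were not used here, and neither replicate values nor read depth were analysed. The log2 of each ratio was taken with no pseudocount, leaving out NA, Inf and 0, and the median of all autosomal bins was subtracted. Centres were split into 3 sections, and windows held 10 bins. Single bins named are the 3 lowest and 3 highest of the centres per strain and sex or by sex difference, those among the extreme 23 of both sexes, the edge bins and the longest runs; of these the text gives the ones it needs. The windows and low zones were chosen after the values were seen. Python 3.11.15, numpy 2.4.6, pandas 2.3.3 and scipy 1.17.1 were used. The difference of centres and arms and the correlation of the sexes on the arms were tested on simulated data. The search for runs was tested on a made-up example, and the other measures had no such test. The bins and measures were chosen with earlier results of these data known. Genes were not placed in bins, because the gene table at hand belongs to another build.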

Additional observations from a re-analysis of the deposited data

Results flagged for a closer look

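PMW179 on the centres had opposite signs in the sexes relative to the autosomal median, with a log2 level of 0.16 in hermaphrodites and -0.056 in males. Its centre minus arms likewise had 0.25 in hermaphrodites and -0.054 in males. Each sex has 1 ratio per bin, so neither difference was tested.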

How the results depend on the processing

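No paired analysis was run, because the ratio columns used carry no replicate numbers and the numbered columns of the other table were not used. Leaving out replicates was not run for the same reason. The 38 values were recomputed under the alternatives, 306 values in all. Of these, 256 stayed within the order-statistic interval of the median over bins, within 1 SD over chromosomes, or, for shares, within 1.5 times, and 50 moved. A change of sign was counted only for values that differed from 0 by this interval or SD, and 0 were found. Shares of bins cannot change sign and were not part of that count. With the reference taken outside the centres, PMW123 was at -0.81 in hermaphrodites and -1.19 in males, with -1.11 on III and -0.52 on IV in hermaphrodites and -0.66 on IV and -1.12 on V in males; its high bins were 5.80% and 3.11%, the low PMW179 bins in hermaphrodites 1.34%, the PMW179 sex difference -0.42, and PMW123 over PMW179 -1.10 and -1.18. Without scaling, PMW179 in hermaphrodites was at 0.43, with 0.47 on II, 0.47 on III, 0.43 on IV and 0.40 on V, 0% low and 38.8% high bins; its sex difference was -0.57, and PMW123 over PMW179 in hermaphrodites -0.99. With the wider centre (the middle 50% of a chromosome) PMW123 was at -0.42 and -0.69, with -0.90 on II and -0.55 on V in males; its high bins in hermaphrodites were 14.2%, the low PMW179 bins in hermaphrodites 5.05%, the r of the PMW123 sexes 0.62, and PMW123 over PMW179 -0.56 and -0.64. With the narrower centre (the middle 20%) PMW123 was at -0.76 in hermaphrodites and at -1.66 on II in males; its high bins were 3.76% and 1.49%, r was 0.50, and PMW123 over PMW179 -0.84 and -1.11. Without chromosome IV, PMW123 was at -0.74 and -1.09, its high bins in males 4.19% and PMW123 over PMW179 in hermaphrodites -0.84; without II, the low PMW179 bins in hermaphrodites were 1.16%. With means, these were 4.91%. At 2-fold, the low PMW123 bins in hermaphrodites were 29.9% and the high ones 4.46% and 1.78%, and the PMW179 shares were 0% low and 8.04% high in hermaphrodites and 2.22% and 2.67% in males. The small male PMW179 contrast to the arms was 0.02 with the narrower centre, against -0.05. With windows of 5 or 15 bins, chosen after seeing the data, 4 of 16 minima moved by over 1 Mb, all with 5 bins. The causes were not tested. Read depth was not analysed here. The ratio of PMW124 to itself was NA in 13 bins of hermaphrodites and 7 of males, of which 1 and 0 lay in the centres. Whether low depth in single bins enters the extreme ratios or the likeness of the sexes was not tested.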
